A study of Mus musculus with 8 samples.

Results

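A set of 42 genes of the cell cycle was described in RNA sequencing data of early B cells from mice with and without lactoferrin. All 42 were taken by symbol from the 52550 genes of the deposited tables and were split by phase into 19 genes of DNA replication and S phase entry and 23 genes of mitosis. The S phase genes were Mcm2 to Mcm7, Pcna, Rrm1, Rrm2, Tyms, Tk1, Dut, Gins2, Cdc6, Cdc45, Cdt1, Uhrf1, Ccne1 and Ccne2. The mitosis genes were Mki67, Top2a, Ccna2, Ccnb1, Ccnb2, Cdk1, Cdc20, Plk1, Aurka, Aurkb, Bub1, Bub1b, Birc5, Cenpa, Cenpe, Cenpf, Kif11, Kif23, Tpx2, Ube2c, Nusap1, Tacc3 and Prc1.

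The cells were pre-pro-B and pro-B cells, consecutive early stages of the B lineage, isolated from bone marrow of untreated C57BL/6J mice with a flow cytometer. WT mice carried intact lactoferrin (Ltf), and Lf-/- mice carried a knockout of it in all cells of the body. Their age was not given in the sources used here. There were 7 libraries, 2 from pre-pro-B cells of each genotype, 2 from Lf-/- pro-B cells and 1 from WT pro-B cells, and WT pro-B replicate 2 was not analysed here. The labels do not say whether replicates came from separate mice, so p-values measure the spread between these libraries, which may be technical.

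Values were FPKM, fragments scaled to transcript length and to the number of mapped fragments, a scale that allows levels to be compared between genes. Ltf was at 2143 to 2731 FPKM in the WT libraries and at 88.2 to 168 FPKM in the Lf-/- libraries. Fragment numbers read from the smallest steps of the values were about 11000000 to 15000000 in 6 libraries. Lf-/- pre-pro-B replicate 2 stood apart: it listed 12172 genes above 0, where the others listed 19477 to 20250, and its depth is unknown. Of 2244 genes with at least 10 FPKM in each of the other 6 libraries, 14 were listed at 0 in that library, and no such gene was listed at 0 in any other. Results that rest on this library are therefore given with and without it. In sorted bulk cells, fewer cycling cells and less RNA of these genes per cell cannot be told apart.

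Before replication, the MCM helicase is loaded on DNA as a ring of 6 related subunits by Cdc6 and Cdt1, and it is activated when Cdc45 and the GINS complex join it. Genes for this step are transcribed late in G1 under the E2F factors. Genes for mitosis are transcribed later, in G2, largely through a promoter element called the cell cycle genes homology region (CHR) together with CCAAT boxes bound by NF-Y. Early B cells divide in bursts under interleukin-7 and leave the cycle while they rearrange their immunoglobulin genes.

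The promoters of the members differed by phase. RefSeq promoter sequences (GRCm38.p6, 250 bases before to 50 bases after each annotated start) were present for 16 of the 19 S phase genes (18 windows) and 20 of the 23 mitosis genes (21 windows). They were searched on both strands for the E2F motif TTCCCGC and its variants TTGGCGC and then TTCGCGC and then TTGCCGC, for the CHR in its forms TTTGAA and also TTCGAA, and for the box CCAAT. Matches to different motifs overlapped in 3 places. Matches to the same motif were counted apart also where they overlapped, so counts of matches can exceed counts of separate sites. An E2F motif was found in 61.1% of the S phase windows and in 19% of the mitosis windows, against 9.57% of all 32851 windows and 16.4% of the 8737 windows of expressed genes (1 FPKM or more in 2 or more libraries). The CHR showed the reverse order, with 16.7% of S phase windows, 76.2% of mitosis windows and 19.2% of all windows. CCAAT was found in 66.7% of S phase windows, 85.7% of mitosis windows and 37.4% of all windows. A CHR and a CCAAT together were found in 76.2% of mitosis windows, 16.7% of S phase windows and 7.52% of all windows. These are matches of letters, with no test and no measure of binding.

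The windows of the 3 highest members of each phase that had one are shown first, with matches in capitals. Among the S phase genes these were Pcna (chr2:132253131-132253430 on the minus strand), Rrm2 (chr12:24708004-24708303 on the plus strand) and Dut (chr2:125247265-125247564 on the plus strand).
Pcna: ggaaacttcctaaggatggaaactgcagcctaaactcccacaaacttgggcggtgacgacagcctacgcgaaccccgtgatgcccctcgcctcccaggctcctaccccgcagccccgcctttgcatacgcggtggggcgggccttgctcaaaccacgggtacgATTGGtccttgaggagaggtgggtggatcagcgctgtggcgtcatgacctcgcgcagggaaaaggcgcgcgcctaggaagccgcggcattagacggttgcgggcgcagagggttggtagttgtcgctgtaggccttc
Rrm2: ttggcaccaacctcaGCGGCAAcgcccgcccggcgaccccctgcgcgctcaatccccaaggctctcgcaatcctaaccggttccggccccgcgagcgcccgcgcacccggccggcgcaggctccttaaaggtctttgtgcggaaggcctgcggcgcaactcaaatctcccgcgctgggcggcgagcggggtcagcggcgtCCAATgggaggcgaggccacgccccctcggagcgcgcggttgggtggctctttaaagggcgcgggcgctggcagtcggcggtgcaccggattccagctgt
Dut: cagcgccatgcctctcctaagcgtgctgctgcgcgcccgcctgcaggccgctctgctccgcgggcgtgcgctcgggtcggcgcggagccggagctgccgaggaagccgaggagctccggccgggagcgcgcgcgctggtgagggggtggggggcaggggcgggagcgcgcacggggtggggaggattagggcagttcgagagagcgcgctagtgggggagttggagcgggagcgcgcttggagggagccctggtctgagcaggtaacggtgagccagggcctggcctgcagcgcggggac
Only a CCAAT was matched in Pcna, an E2F motif and a CCAAT were matched in Rrm2, and no motif was matched in Dut. The Dut window lies inside the gene as annotated by GENCODE, which starts at position 125247190. The sequence before that position was not searched. The 3 mitosis genes were Ube2c (chr2:164769679-164769978 on the plus strand), Ccnb2 (chr9:70421505-70421804 on the minus strand) and Birc5 (chr11:117848987-117849286 on the plus strand).
Ube2c: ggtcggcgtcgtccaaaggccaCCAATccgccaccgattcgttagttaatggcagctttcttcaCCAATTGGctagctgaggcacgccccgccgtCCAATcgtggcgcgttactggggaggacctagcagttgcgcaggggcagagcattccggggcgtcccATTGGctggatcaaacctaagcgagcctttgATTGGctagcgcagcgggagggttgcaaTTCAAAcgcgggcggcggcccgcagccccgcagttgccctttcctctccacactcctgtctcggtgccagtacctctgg
Ccnb2: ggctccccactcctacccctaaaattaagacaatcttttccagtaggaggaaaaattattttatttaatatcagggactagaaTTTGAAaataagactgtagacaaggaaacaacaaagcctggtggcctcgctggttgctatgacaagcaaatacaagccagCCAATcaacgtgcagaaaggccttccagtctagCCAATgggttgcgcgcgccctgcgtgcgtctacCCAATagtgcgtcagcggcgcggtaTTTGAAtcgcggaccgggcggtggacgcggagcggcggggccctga
Birc5: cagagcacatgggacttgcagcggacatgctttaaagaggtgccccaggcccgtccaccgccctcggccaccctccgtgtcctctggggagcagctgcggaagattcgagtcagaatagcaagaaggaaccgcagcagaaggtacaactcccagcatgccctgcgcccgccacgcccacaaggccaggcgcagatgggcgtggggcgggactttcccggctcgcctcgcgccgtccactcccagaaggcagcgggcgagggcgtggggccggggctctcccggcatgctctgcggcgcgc
Ube2c held 1 CHR and 6 CCAAT matches, Ccnb2 held 2 CHR and 3 CCAAT matches, and Birc5 held none. A further 3 windows were chosen after the matches were seen, because they held the most matches for their phase or both kinds of element: Mcm6 (chr1:128359656-128359955 on the minus strand), Cdk1 (chr10:69352863-69353162 on the minus strand) and Top2a (chr11:99024140-99024439 on the minus strand).
Mcm6: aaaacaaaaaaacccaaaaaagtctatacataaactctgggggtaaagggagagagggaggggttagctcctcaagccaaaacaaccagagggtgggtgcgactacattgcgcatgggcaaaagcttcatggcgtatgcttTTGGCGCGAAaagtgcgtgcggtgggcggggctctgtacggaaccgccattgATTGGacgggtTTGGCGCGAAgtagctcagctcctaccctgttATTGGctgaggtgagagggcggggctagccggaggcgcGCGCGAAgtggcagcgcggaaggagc
Cdk1: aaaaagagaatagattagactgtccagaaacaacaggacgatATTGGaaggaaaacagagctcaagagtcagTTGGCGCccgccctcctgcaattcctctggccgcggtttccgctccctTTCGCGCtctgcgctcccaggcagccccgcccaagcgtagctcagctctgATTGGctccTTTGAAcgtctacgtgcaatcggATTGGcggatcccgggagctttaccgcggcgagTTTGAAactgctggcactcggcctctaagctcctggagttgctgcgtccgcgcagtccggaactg
Top2a: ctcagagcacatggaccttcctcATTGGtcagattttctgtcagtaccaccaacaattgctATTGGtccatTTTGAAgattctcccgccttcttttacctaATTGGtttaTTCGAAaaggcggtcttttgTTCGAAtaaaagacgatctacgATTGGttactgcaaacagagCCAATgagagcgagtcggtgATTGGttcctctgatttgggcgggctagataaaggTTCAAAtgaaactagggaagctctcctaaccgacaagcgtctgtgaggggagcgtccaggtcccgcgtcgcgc
Mcm6 had 5 E2F matches and no CHR, Top2a had 4 CHR matches and no E2F motif, and Cdk1 had 2 of each. The Mcm6 matches at -109 and -106 bases overlap in a single capital stretch, as do those at -46 and -43 bases. In mitosis windows 17 of 23 CHR matches lay from 100 bases before to 50 bases after the start, with a median distance of -19 bases, and 12 of 22 E2F matches in S phase windows lay in that stretch.

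**Figure D1:**
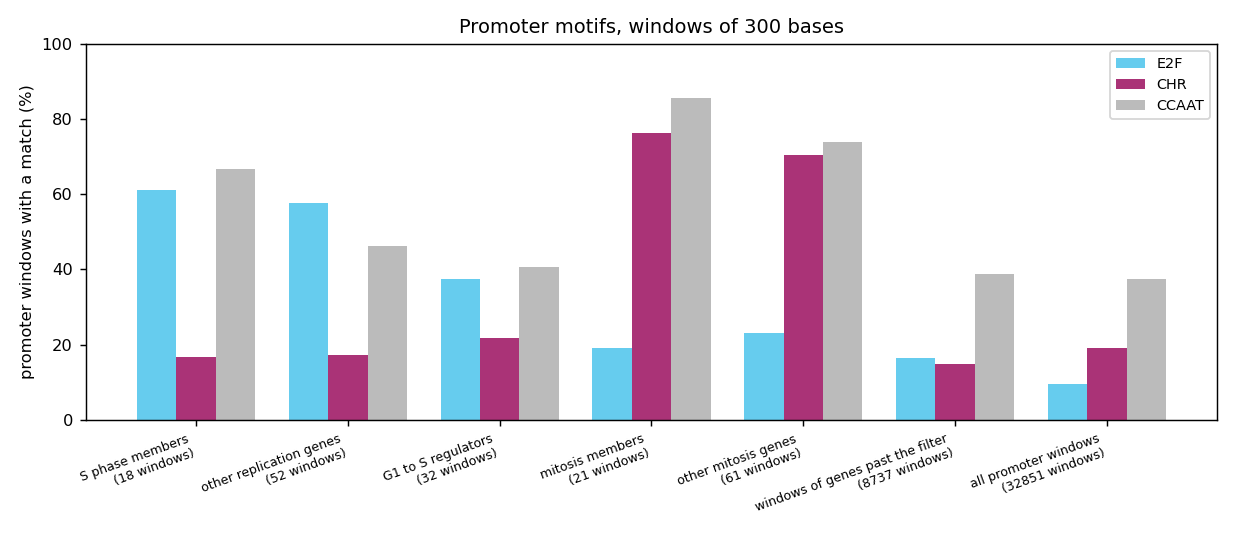
Share of promoter windows (in percent, from 0 to 100) with a match to the E2F motifs, the CHR or CCAAT, for the members, for 3 lists of other cell cycle genes, for windows of expressed genes (past the filter on low values) and for all windows. E2F bars are highest for the replication lists (61.1% and 57.7%) and CHR bars for the mitosis lists (76.2% and 70.5%).

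**Figure D2:**
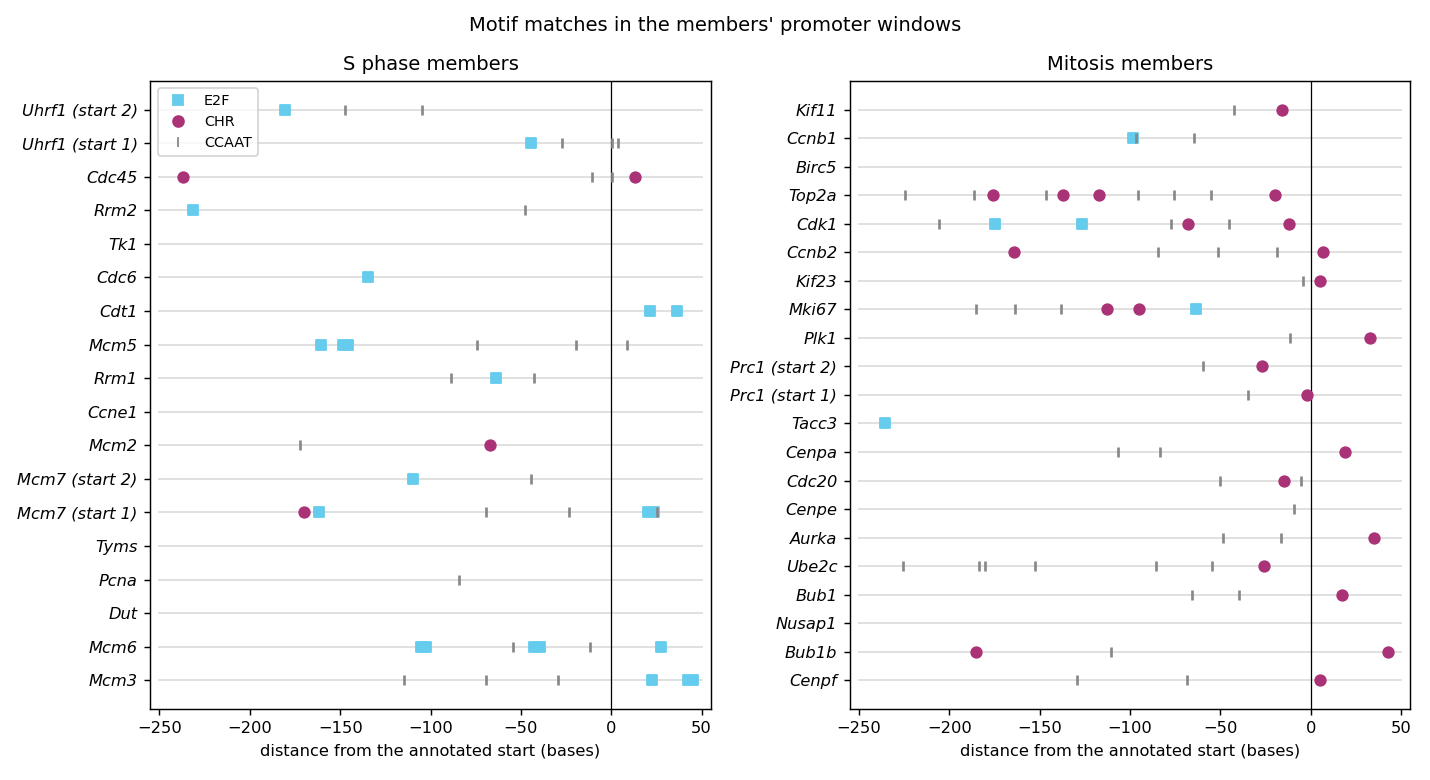
Position of each match in bases from the annotated start (vertical line) in the members' windows, one row a window, with squares for E2F, circles for the CHR and ticks for CCAAT. Circles are in 16 of 21 mitosis rows and 3 of 18 S phase rows.

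The other genes of the same processes had the same order. An E2F motif was in 57.7% of the 52 windows of other replication genes, 37.5% of the 32 windows of G1 to S regulators and 23% of the 61 windows of other mitosis genes. The CHR was in 17.3%, 21.9% and 70.5% of these windows.

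All 42 members were expressed. Of the 19 S phase genes, 17 had at least 1 FPKM in every library, as did 22 of the 23 mitosis genes, and the 3 values under 1 FPKM were all in Lf-/- pre-pro-B replicate 2. All 42 passed the filter on low values (at least 1 FPKM in at least 2 libraries of the fit). Mean levels over the 7 libraries ran from 4.38 FPKM (Ccne2) to 115 FPKM (Pcna) among S phase genes and from 1.83 FPKM (Bub1) to 139 FPKM (Ube2c) among mitosis genes. Without Lf-/- pre-pro-B replicate 2, the highest of the other 6 libraries was 1.25 to 2.38 times the lowest for S phase genes (median 1.68) and 1.20 to 2.32 times for mitosis genes (median 1.69). In those 6 libraries 31 of the 42 members (73.8%) stayed within a factor of 2, as did 35.6% of the 10793 genes tested.

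Helicase genes were of moderate level. The 6 MCM subunits ranged from 7.54 FPKM (Mcm4, WT pro-B) to 45 FPKM (Mcm3, Lf-/- pre-pro-B replicate 2). Mcm5 (chr8:75109569-75128439, plus strand) was the highest of them by mean. Mcm5 was at 42.3 and 41.2 FPKM (WT) against 25.5 and 26.8 FPKM (Lf-/-) in pre-pro-B cells, and at 28.7 FPKM (WT) against 37.4 and 38.4 FPKM (Lf-/-) in pro-B cells. Mcm7 was at 32.2 and 31.9 FPKM (WT) against 21.5 and 18.6 FPKM (Lf-/-) in pre-pro-B cells, and at 23.7 FPKM (WT) against 32 and 34.2 FPKM (Lf-/-) in pro-B cells. Both WT pre-pro-B values lay above both Lf-/- pre-pro-B values for each of these subunits, and the pro-B groups had the opposite order on the deposited scale. Under median-ratio scaling, where each library is divided by the median ratio of its genes to their geometric mean over libraries, the pro-B order turned: Mcm5 was at 38.9 FPKM (WT) against 31.7 and 34 FPKM (Lf-/-), and Mcm7 at 32.2 FPKM (WT) against 27.1 and 30.3 FPKM (Lf-/-). The pre-pro-B order of both subunits was the same on both scales. Mcm2, Mcm3, Mcm4 and Mcm6 had overlapping pre-pro-B groups, with the lowest pre-pro-B value in Lf-/- replicate 1 and the highest in Lf-/- replicate 2.

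Of the loaders and activators of the helicase, Cdc6 ranged from 3.34 to 7.54 FPKM, Cdt1 from 5.98 to 10.7 FPKM and Gins2 from 5.16 to 8.78 FPKM. Cdc45 (chr16:18780447-18811987, minus strand), the subunit whose binding starts the helicase, was at 24.4 and 28.8 FPKM (WT) against 13.4 and 22 FPKM (Lf-/-) in pre-pro-B cells, and at 13.9 FPKM (WT) against 30.6 and 25.9 FPKM (Lf-/-) in pro-B cells. Lf-/- pre-pro-B replicate 1 and the WT pro-B library were the low pair for Cdc45, at about the same level.

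Pcna (chr2:132249162-132253314, minus strand), the sliding clamp that holds DNA polymerase on its template, was the highest S phase gene. It was at 102 and 86.9 FPKM (WT) against 89.9 and 204 FPKM (Lf-/-) in pre-pro-B cells, and at 73.6 FPKM (WT) against 132 and 117 FPKM (Lf-/-) in pro-B cells. The value of Lf-/- pre-pro-B replicate 2 was 2.77 times that of the WT pro-B library, the lowest. A processed copy of Pcna with 99.2% identity, Pcna-ps2, was listed at up to 34.1 FPKM and took at most 14.9% of the sum of both, so reads could be split between them.

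Rrm2 and Dut, from the nucleotide supply, followed Pcna in level. Rrm2, the regulated subunit of ribonucleotide reductase, was at 87.3 and 68.3 FPKM (WT) against 59.2 and 80 FPKM (Lf-/-) in pre-pro-B cells, and at 59 FPKM (WT) against 83 and 87.5 FPKM (Lf-/-) in pro-B cells. Dut, which keeps uracil out of DNA by breaking down dUTP, was at 70.3 and 77.4 FPKM (WT) against 57.8 and 87.4 FPKM (Lf-/-) in pre-pro-B cells, and at 61.2 FPKM (WT) against 68.9 and 87.2 FPKM (Lf-/-) in pro-B cells. The highest library was under 1.6 times the lowest for both genes. The constitutive reductase subunit Rrm1 (8.79 to 16.7 FPKM), thymidylate synthase Tyms (8.71 to 20.3 FPKM) and thymidine kinase Tk1 (14.3 to 36.3 FPKM) were each highest in Lf-/- pre-pro-B replicate 2.

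Ccne1 and Uhrf1 set that library apart in the other direction. Ccne1 (chr7:38097984-38107534, minus strand), a cyclin that drives entry into S phase with Cdk2, was at 14.2 and 11.7 FPKM in WT pre-pro-B, 7.57 FPKM in WT pro-B and 18 and 13 FPKM in Lf-/- pro-B cells. Of the Lf-/- pre-pro-B libraries, replicate 1 held Ccne1 at 7.68 FPKM and replicate 2 listed it at 0. Uhrf1, which recruits the maintenance DNA methyltransferase to newly copied DNA and was chosen after its values were seen, was at 13.7 and 11.1 FPKM (WT) against 13.9 and 0.247 FPKM (Lf-/-) in pre-pro-B cells, and at 9.99 FPKM (WT) against 18.7 and 12.8 FPKM (Lf-/-) in pro-B cells. Ccne2, the other cyclin E gene, was highest in Lf-/- pre-pro-B replicate 2, at 6.56 FPKM, within a range of 2.59 to 6.56 FPKM. Of 3478 genes with at least 5 FPKM in each of the other 6 libraries, 86 (2.47%) were under 10% of the lowest of them in Lf-/- pre-pro-B replicate 2, and among 17 S phase genes of that level these were Ccne1 and Uhrf1. None of the 15 mitosis genes of that level was so low there, and no member was so low in any other library. Over all genes, 1 gene was so low in each of the Lf-/- pro-B libraries and 0 in the other 4 libraries.

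**Figure D3:**
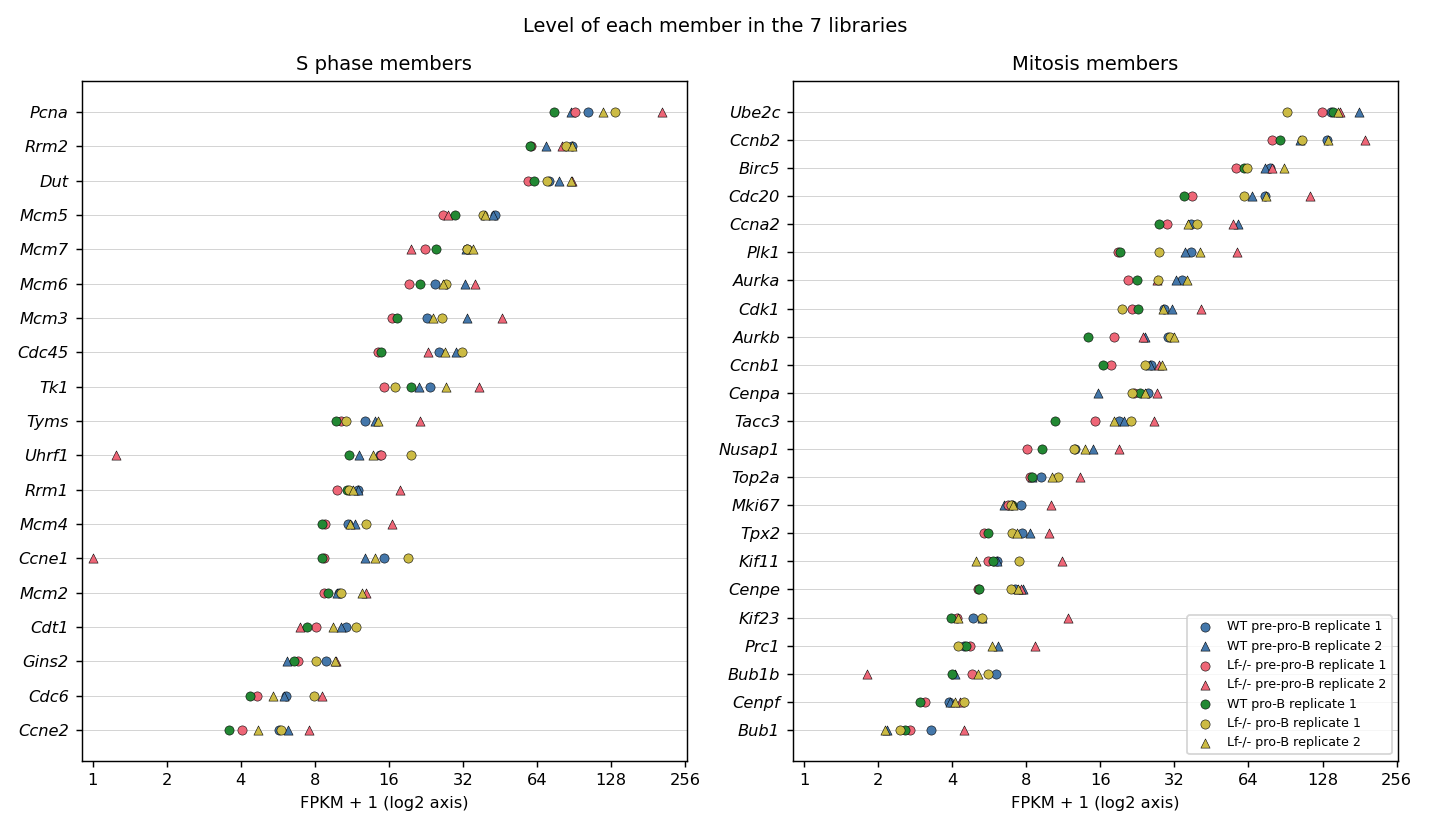
FPKM + 1 (log2 axis) of each member in the 7 libraries, S phase genes on the left and mitosis genes on the right, ordered by mean level, with colours for groups and shapes for replicates. The red triangles, Lf-/- pre-pro-B replicate 2, are the highest points for 12 S phase and 14 mitosis genes, and lie far to the left for Ccne1 and Uhrf1.

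Among mitosis genes Ube2c, Ccnb2, Birc5 and Cdc20 were highest by mean. Ube2c (chr2:164769898-164778822, plus strand), the ubiquitin-conjugating enzyme of the anaphase-promoting complex, was at 137 and 179 FPKM (WT) against 126 and 149.8 FPKM (Lf-/-) in pre-pro-B cells, and at 139.7 FPKM (WT) against 91.1 and 147 FPKM (Lf-/-) in pro-B cells. Its lowest value was in Lf-/- pro-B replicate 1, and the genotypes overlapped in both stages. Cdc20, the activator of that complex at anaphase, was at 74 and 65 FPKM (WT) against 36.9 and 113 FPKM (Lf-/-) in pre-pro-B cells, and at 34 FPKM (WT) against 60.6 and 74.7 FPKM (Lf-/-) in pro-B cells. The Cdc20 values of Lf-/- pre-pro-B replicate 1 and the WT pro-B library were the low pair again.

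Cyclin B2, Ccnb2, was at 133 and 103 FPKM (WT) against 79.1 and 190.0 FPKM (Lf-/-) in pre-pro-B cells, and at 85 FPKM (WT) against 105 and 134 FPKM (Lf-/-) in pro-B cells. Its partner kinase Cdk1 ranged from 18.5 to 40.1 FPKM, Ccnb1 from 15.3 to 27.5 FPKM and Ccna2, which acts in S phase and G2, from 26.8 to 57.1 FPKM. Ccnb1 has processed copies, of which Ccnb1-ps (99.2% identity) reached 7.36 FPKM, so its values are uncertain where reads could be shared.

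Birc5 (survivin), a subunit of the chromosomal passenger complex with the kinase Aurkb, was among the steadiest members. It was at 77.4 and 73.6 FPKM (WT) against 56.2 and 79.1 FPKM (Lf-/-) in pre-pro-B cells, and at 60.6 FPKM (WT) against 62.4 and 88.1 FPKM (Lf-/-) in pro-B cells. Aurkb (chr11:69045647-69051664, plus strand), which corrects faulty attachments of chromosomes to the spindle, was at 29.1 and 23.4 FPKM (WT) against 17.2 and 22.9 FPKM (Lf-/-) in pre-pro-B cells, and at 13.3 FPKM (WT) against 29.6 and 30.9 FPKM (Lf-/-) in pro-B cells. Its WT pro-B value was the lowest of the 7. The centrosomal kinase Aurka ranged from 19.7 to 35.2 FPKM and the polo kinase Plk1 from 17.8 to 56.6 FPKM.

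Of the proliferation markers, Mki67 and Top2a varied little on the deposited scale. Mki67, the Ki-67 antigen, was at 6.63 and 5.51 FPKM (WT) against 5.75 and 9.12 FPKM (Lf-/-) in pre-pro-B cells, and at 5.97 FPKM (WT) against 5.93 and 6.07 FPKM (Lf-/-) in pro-B cells. Apart from Lf-/- pre-pro-B replicate 2, the highest Mki67 value was 1.20 times the lowest, the smallest such ratio among the 42 members. This ratio was not worked out under median-ratio scaling. The divisors of that scaling ran from 0.737 (WT pro-B) to 1.18 (Lf-/- pro-B replicate 1) in the libraries compared. Top2a, which untangles sister chromatids, ranged from 7.26 to 12.2 FPKM.

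The spindle, centromere and checkpoint genes completed the set. Kif23, a kinesin of the central spindle, was at 3.84 and 4.27 FPKM (WT) against 3.19 and 10.8 FPKM (Lf-/-) in pre-pro-B cells, and at 2.96 FPKM (WT) against 4.28 and 3.24 FPKM (Lf-/-) in pro-B cells, so 1 library was more than 2 times any other. The spindle motor Kif11 (3.99 to 10.1 FPKM), the bundling protein Prc1 (3.23 to 7.69 FPKM), the microtubule factors Tpx2 (4.41 to 8.9 FPKM), Nusap1 (7.04 to 18 FPKM) and Tacc3 (9.48 to 25.4 FPKM) were also highest in Lf-/- pre-pro-B replicate 2. The centromere genes Cenpa (14.7 to 26.2 FPKM), Cenpe (4.07 to 6.78 FPKM) and Cenpf (1.96 to 3.46 FPKM) spanned under 2 times. Of the checkpoint kinases, Bub1 reached its highest value, 3.47 FPKM, in Lf-/- pre-pro-B replicate 2, and Bub1b its lowest, 0.795 FPKM.

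Summed over the members, Lf-/- pre-pro-B replicate 2 was highest in both phases, and Lf-/- pre-pro-B replicate 1 and the WT pro-B library were the lowest pair. The S phase genes made up 0.0656% and 0.0658% (WT) against 0.0467% and 0.0933% (Lf-/-) of the summed FPKM in pre-pro-B cells, and 0.0461% (WT) against 0.076% and 0.0767% (Lf-/-) in pro-B cells. The mitosis genes made up 0.0894% and 0.0927% (WT) against 0.0602% and 0.13% (Lf-/-) in pre-pro-B cells, and 0.0619% (WT) against 0.0797% and 0.101% (Lf-/-) in pro-B cells. The WT pre-pro-B libraries lay between the Lf-/- pre-pro-B libraries in both sums, and the WT pro-B library lay under both Lf-/- pro-B libraries. These orders did not hold under median-ratio scaling. The summed S phase FPKM was then 519 and 546 (WT) against 428.5 and 493 (Lf-/-) in pre-pro-B cells, and 522 (WT) against 473 and 497 (Lf-/-) in pro-B cells. The summed mitosis FPKM was 707 and 769 (WT) against 552 and 685.5 (Lf-/-) in pre-pro-B cells, and 701 (WT) against 496 and 657 (Lf-/-) in pro-B cells. Every WT library then lay above every Lf-/- library in both sums, a description with no test. The ratio of the mitosis sum to the S phase sum was 1.36 and 1.41 (WT) against 1.29 and 1.39 (Lf-/-) in pre-pro-B cells, and 1.34 (WT) against 1.05 and 1.32 (Lf-/-) in pro-B cells. In pre-pro-B cells this ratio was 1.39 ± 0.0328 (SD, n = 2) in WT and 1.34 ± 0.0725 (SD, n = 2) in Lf-/-, and the groups overlapped (two-sided exact permutation test, p = 0.667, where the smallest possible p is 0.333).

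**Figure D4:**
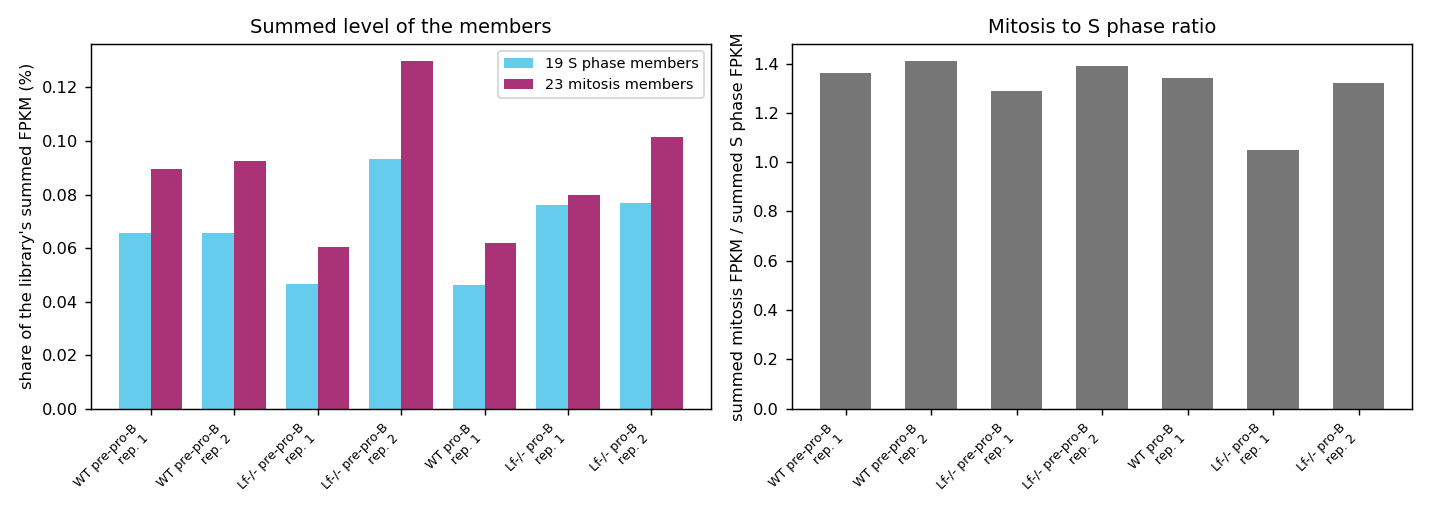
Left, share of each library's summed FPKM (%) taken by the 19 S phase and the 23 mitosis members. Right, ratio of the mitosis sum to the S phase sum. Bars are single libraries and start at 0. The Lf-/- pre-pro-B libraries hold the highest sums of the 7 (0.0933% and 0.13%) and the lowest mitosis sum (0.0602%), and the lowest ratio is 1.05 in Lf-/- pro-B replicate 1.

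The first comparison asked whether pre-pro-B cells without lactoferrin differed from WT in these genes. No member passed an adjusted p of 0.05 in limma on log2(FPKM + 1) (Benjamini-Hochberg adjustment over 9720 genes), a share set beside 0% of all genes tested. No member passed an unadjusted p of 0.05 either, which 2.92% of all genes did. With all 7 libraries in 1 fit, Ccne1 alone of the members had an unadjusted p under 0.05 (0.0469, adjusted p = 0.788 in limma). Of all 9720 genes tested, 518 were under 0.05 in that fit. The median log2 difference, Lf-/- minus WT, was -0.05 over the S phase genes (9 higher, 10 lower) and -0.10 over the mitosis genes (9 higher, 14 lower), beside 0.03 over all genes tested. All genes shifted to -0.10 under median-ratio scaling, where the members' medians were -0.13 (S phase) and -0.17 (mitosis) relative to all genes.

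The member with the lowest difference was Ccne1 at -2.24 (SE 1.02, adjusted p = 0.941 in limma), and the highest was Pcna at 0.52. Without Lf-/- pre-pro-B replicate 2, Ccne1 was at -0.68 and Pcna at -0.069. Groups did not overlap for 5 S phase genes (Ccne1, Mcm5, Mcm7, Cdt1 and Cdc45) and 2 mitosis genes (Aurka and Aurkb), all lower in Lf-/-. Over all genes, 33.2% had groups that did not overlap and 17.7% did so with Lf-/- lower, so the 7 of 42 members were close to that background. Mcm5 was at -0.66 (SE 0.39, adjusted p = 0.941) and Mcm7 at -0.66 (SE 0.40, adjusted p = 0.941) on the log2 scale in limma.

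The spread between the Lf-/- pre-pro-B replicates was wide. Of the 42 members 37 were higher in replicate 2 than in replicate 1 (88.1%, beside 56.2% of all genes tested), and the 5 exceptions were Mcm7, Cdt1, Uhrf1, Ccne1 and Bub1b. Replicate 1 lay under both WT values for 34 members (81%, beside 44.2% of all genes), and replicate 2 lay above both WT values for 29 (69%, beside 49.1%). The median absolute log2 difference between replicates was 0.88 for S phase and 0.79 for mitosis genes in Lf-/- pre-pro-B cells, 0.14 and 0.13 in WT pre-pro-B cells, and 0.27 and 0.23 in Lf-/- pro-B cells.

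The direction of the genotype difference therefore depended on which Lf-/- pre-pro-B library was used. Without replicate 2, the median was -0.38 for S phase and -0.42 for mitosis genes beside -0.10 for all genes. Lower in Lf-/- were then 18 of 19 S phase and 21 of 23 mitosis genes, beside 5564 of 9328 genes tested. Without replicate 1, the median was 0.34 for S phase and 0.44 for mitosis genes beside 0.23 for all genes, and 5 members passed the adjusted threshold, as did 3338 of 9143 genes tested. Of these 5, Pcna (log2 difference 1.10) and Kif23 (1.23) were higher in the remaining Lf-/- library, and Ccne1 (-3.80), Uhrf1 (-3.42) and Bub1b (-1.47) were lower. In both cases the lone Lf-/- library was assumed to vary like the WT pair.

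**Figure D5:**
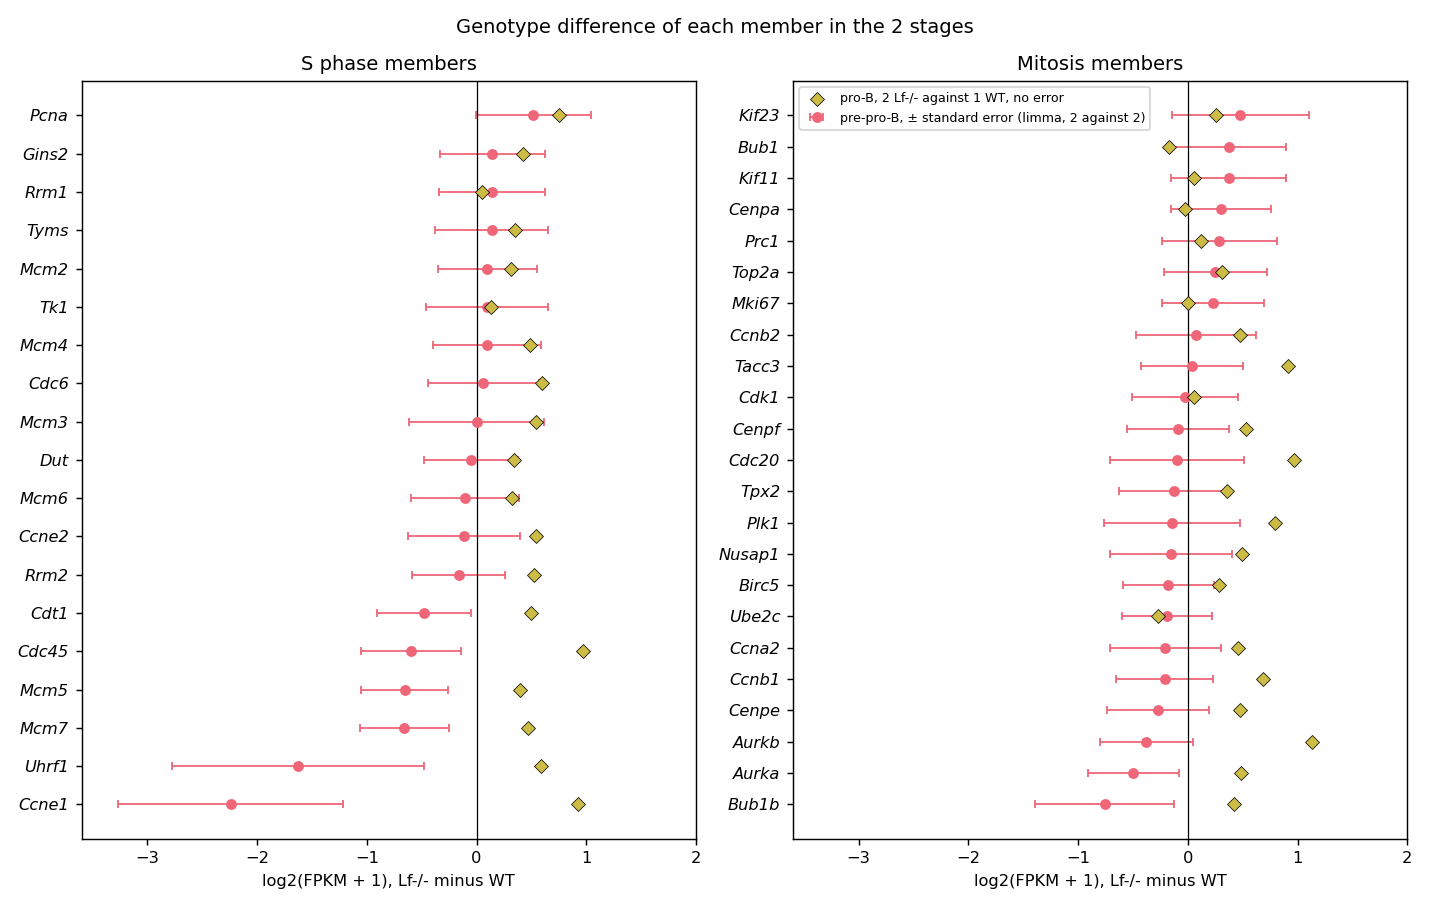
Log2 difference of each member, Lf-/- minus WT on log2(FPKM + 1), in pre-pro-B cells (circles, bars are ± 1 standard error from limma, 2 libraries against 2) and in pro-B cells (diamonds, mean of 2 Lf-/- libraries minus 1 WT library, no error). Most circles lie within 1 standard error of 0, and the diamonds lie to the right of 0 for 39 of 42 members, around the median of all genes at 0.48, which median-ratio scaling moved to 0.01.

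In pro-B cells the comparison had 1 WT library and is given mainly as values. In a fit of all 7 libraries, which takes the lone WT library to vary like the other groups, no member and 0 of 10793 genes passed an adjusted p of 0.05 in limma. Aurkb alone among the members passed an unadjusted threshold of 0.05 (adjusted p = 0.822 in limma), beside 4.33% of all genes. All 19 S phase genes and 20 of 23 mitosis genes were higher in the mean of the Lf-/- libraries, as were 87% of all 10793 genes tested. Both Lf-/- values lay above the WT value for 34 of 42 members, beside 75.3% of all genes. The median log2 difference was 0.49 for S phase, 0.42 for mitosis and 0.48 for all genes, so relative to all genes the members were at 0.00 and -0.06, and under median-ratio scaling, which brought all genes to 0.01, they turned to -0.12 (S phase) and -0.18 (mitosis).

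One member, Aurkb, was at least 2-fold higher in Lf-/- pro-B cells (log2 difference 1.13), beside 12.4% of all genes, and it was at 0.51 under median-ratio scaling. Without Lf-/- pro-B replicate 1, 3 members were at least 2-fold higher, beside 1239 of 10280 genes. Without replicate 2 these were 4 members, beside 1858 of 10461 genes. Cdc45 (0.97), Cdc20 (0.97), Ccne1 (0.93) and Tacc3 (0.91) came closest to 2-fold. The lowest member was Ube2c at -0.27, and Bub1 (-0.17) and Cenpa (-0.02) were the others under 0.

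Over both stages together, with stage as a term, no member passed an adjusted p of 0.05 in limma, beside 0.185% of all genes, or an unadjusted one, beside 7.17%. The median log2 difference was 0.11 for S phase, 0.16 for mitosis and 0.21 for all genes. Median-ratio scaling turned them to -0.24, -0.18 and -0.06. Pcna was highest at 0.61 (SE 0.34, adjusted p = 0.689 in limma) and Ccne1 lowest at -0.97 (SE 0.83, adjusted p = 0.712). Without Lf-/- pre-pro-B replicate 2, Ccne1 was at 0.12 and Pcna at 0.34.

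Between the stages, with genotype as a term, no member passed an adjusted p of 0.05 in limma, beside 0.00927% of all genes (1 gene), or an unadjusted one, beside 2.41%. On the deposited scale, 20 of 23 mitosis genes were lower in pro-B than in pre-pro-B cells with a median of -0.21, while 10 of 19 S phase genes were lower with a median of -0.03, the same as over all genes, of which 52.6% were lower. No test compared the phases. The mitosis count was 15 under median-ratio scaling, 14 under quantile normalization, 14 without Lf-/- pre-pro-B replicate 2 and 12 without the WT pro-B library. Relative to all genes the mitosis median was -0.18, -0.15 under median-ratio scaling and -0.07 under quantile normalization. Without Lf-/- pre-pro-B replicate 2 it was -0.03. Kif23 was lowest at -0.49 (SE 0.40, adjusted p = 0.947 in limma) and Ccne1 highest at 1.20 (SE 0.83, adjusted p = 0.947), and both rest on that library, without which they were at -0.089 and 0.10. In WT cells alone, on the deposited scale, the pro-B library lay under both pre-pro-B libraries for 35 of 42 members (83.3%), beside 64.4% of all genes tested. This count was not made under median-ratio scaling. There the WT pro-B sum of the S phase genes, 522, lay between the WT pre-pro-B sums of 519 and 546. The mitosis sum was 701 in WT pro-B, under 707 and 769 in WT pre-pro-B cells.

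Whether the genotype difference itself differed between the stages was tested as an interaction. No member passed an adjusted p of 0.05 in limma, beside 0% of all genes, and 2 of 42 passed an unadjusted one, beside 2.74% of all genes. These were Aurkb, with an interaction of 1.51 (SE 0.57, unadjusted p = 0.0334, adjusted p = 0.99), and Cdc45, with 1.57 (SE 0.62, unadjusted p = 0.0385, adjusted p = 0.99). Both had lower Lf-/- values in pre-pro-B cells and higher ones in pro-B cells. Their interaction was 1.70 (Aurkb) and 1.91 (Cdc45) without Lf-/- pre-pro-B replicate 2, and 1.31 and 1.23 without replicate 1. Neither kept an unadjusted p under 0.05 under median-ratio scaling (0.052 for Aurkb and 0.0507 for Cdc45 in limma) or quantile normalization (0.0561 and 0.057). Without Lf-/- pre-pro-B replicate 2, the median interaction was 0.87 for S phase and 0.86 for mitosis genes, beside 0.56 for all genes. Relative to all genes the members were then at 0.31 in both phases. With all 7 libraries the median interaction was 0.53 for S phase, 0.48 for mitosis and 0.45 for all genes. The sign relative to all genes turned with the Lf-/- pre-pro-B library left out. Without Lf-/- pre-pro-B replicate 1 the median was 0.094 (S phase) and 0.046 (mitosis), beside 0.32 for all genes. Relative to all genes the members were then at -0.22 (S phase) and -0.27 (mitosis). In that fit Ccne1 and Uhrf1 passed the adjusted threshold, on the value of 1 library each time.

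Other genes of the same processes had like medians, and none passed an adjusted p of 0.05 in any of the 4 limma fits. In pre-pro-B cells the median log2 difference was -0.01 for 51 other replication genes, 0.13 for 26 G1 to S regulators and -0.10 for 57 other mitosis genes, and 0 of these passed an unadjusted p of 0.05 in limma. The lowest were the cyclin Ccnf at -2.0 and E2f1, a founding activator of S phase transcription, at -1.75, and the highest were the kinesin Kif18b at 0.89 and Myc at 0.79. All of these rest on Lf-/- pre-pro-B replicate 2, without which Ccnf was at -0.53, E2f1 at -0.10, Kif18b at -0.17 and Myc at -0.18. In pre-pro-B cells E2f1 was at 16.1 and 11 FPKM (WT) against 12.3 and 0.368 FPKM (Lf-/-). Ccnf was at 8.25 and 12.3 FPKM (WT), and Lf-/- replicate 1 held it at 6.68 FPKM while replicate 2 listed it at 0. Myc was at 6.08 and 7.29 FPKM (WT) against 5.74 and 25.1 FPKM (Lf-/-), and Kif18b at 3.5 and 3.46 FPKM (WT) against 2.97 and 16.4 FPKM (Lf-/-).

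In pro-B cells the medians were 0.42 for other replication genes, 0.53 for G1 to S regulators and 0.40 for other mitosis genes, beside 0.48 for all genes. The highest was Pttg1 (securin, which guards sister chromatid cohesion) at 2.28, with 7.79 FPKM in WT and 36.2 and 47.8 FPKM in Lf-/-, followed by E2f5 at 1.25. The lowest were Cdk6 at -0.58 and Cdc25a at -0.30. Over both stages 1 of the 136 genes passed an unadjusted p of 0.05, Pttg1 at 1.27 (adjusted p = 0.603 in limma), although its WT pre-pro-B values were 11.3 and 30.6 FPKM and overlapped with the Lf-/- values of 28.3 and 29.7 FPKM. Under median-ratio scaling Pttg1 was at 0.93 with an unadjusted p of 0.0669 in limma. The next highest over both stages was Kif18b at 0.84, and the lowest were Ccnf at -0.99 and E2f1 at -0.84. These were at 0.29, 0.00076 and 0.20 without Lf-/- pre-pro-B replicate 2.

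Between the stages, Ccnd1 (cyclin D1) was the 1 gene of the 136 with an unadjusted p under 0.05, higher in pro-B cells by 0.99 (adjusted p = 0.947 in limma) at levels of up to 3.38 FPKM. E2f1 at 1.13 and Cdkn2c, an inhibitor of Cdk4 and Cdk6, at 1.03 were higher still in that fit, and Cdc25c at -0.74 and Orc3 at -0.73 were lowest. E2f1 was at 0.086, Cdkn2c at 0.32, Cdc25c at -0.39, Orc3 at -0.21 and Ccnd1 at 0.73 without Lf-/- pre-pro-B replicate 2. In the interaction, Ccnf at 2.53 and Cdc25b at 2.27 were highest and Cdk6 at -0.43 and Cdc25a at -0.36 lowest, with no unadjusted p under 0.05 in limma. Ccnf and Cdc25b are listed at 0 in Lf-/- pre-pro-B replicate 2, and without it they were at 1.06 and 0.76, with Cdk6 at -0.35 and Cdc25a at 0.094.

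Other cells were present beside B cells, and their markers differed between the libraries that differed most in cell cycle genes. The 14 erythroid markers took 15.3% of the summed FPKM in Lf-/- pre-pro-B replicate 2 and 3.58% in replicate 1, and 1.96% to 7.06% in the WT pre-pro-B pair, with 4.99% (WT) and 5.26% to 10.3% (Lf-/-) in pro-B cells. The 12 markers of neutrophil specific granules, Ltf among them, took 9.53% to 13.3% in Lf-/- pre-pro-B cells, 13.3% to 13.7% in WT pre-pro-B cells, 18.1% in the WT pro-B library and 10.7% to 13.1% in Lf-/- pro-B cells. The 10 azurophil granule markers, which belong to dividing neutrophil precursors, took 1.27% to 2.02% in Lf-/- and 2.89% to 3.64% in WT pre-pro-B cells, and 0.722% to 2.35% in Lf-/- and 3.43% in WT pro-B cells. All 10 were above 0 in every library.

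The 23 early B lineage markers took 0.392% to 0.47% in Lf-/- and 0.0822% to 0.0888% in WT pre-pro-B cells, and 0.24% to 0.432% in Lf-/- and 0.0316% in WT pro-B cells. Late neutrophil markers took 0.10% to 0.298% in Lf-/- and 0.17% to 0.39% in WT pre-pro-B cells, and 0.626% to 1.53% and 0.309% in Lf-/- and WT pro-B cells. Monocyte and macrophage markers took 0.108% to 0.277%, plasmacytoid dendritic cell markers 0.0297% to 0.494%, and T and NK cell markers 0.0015% to 0.0203% over the 7 libraries. All members of the cell cycle list can be transcribed in any dividing cell, erythroid and neutrophil precursors included, and the part of these cells in the results was not tested.

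The counting could also touch single members. Genes elsewhere in the genome that share a near-identical stretch with Pcna, Ccnb1, Rrm2 or Tyms were listed above 1 FPKM in a library. In all, 8 members share such a stretch. For Pcna, Ccnb1 and Rrm2 these genes are processed copies. For Tyms they are other genes that share a short stretch, such as Reep3 (355 bases, up to 6.59 FPKM) and Cd200r3 (283 bases, up to 4.53 FPKM). Exons of 12 members overlap a gene on the opposite strand, and whether reads were counted by strand was not given in the sources used here. The highest partners were Elovl1 beside Cdc20 (up to 68.9 FPKM), Cops6 beside Mcm7 (41.2 FPKM), Oip5 beside Nusap1 (13.7 FPKM) and Ufd1 beside Cdc45 (13.6 FPKM). For Gins2, its partner Gse1 reached 50.2% of the sum of both.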

How the data were processed

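Per-gene FPKM values were deposited by the authors, one table per library, for RNA of sorted pre-pro-B and pro-B cells sequenced on a NovaSeq instrument. The submitters' processing notes name TopHat, Cufflinks, HTSeq, DESeq and GRCm38, with no versions, roles or order. The unit was worked out from the numbers themselves (in 6 of 7 libraries their products with transcript length fall on even steps), and no counts were used. Genes were matched by identifier to GENCODE M21 on GRCm38 (52403 of 52550), and samples were grouped by their labels. The values were transformed to log2(FPKM + 1), with the pseudocount 1. Genes that reached 1 FPKM in 2 or more libraries of the fit were tested in limma 3.58.1 under R 4.3.3, with its trend option, and two-sided p-values were adjusted by the Benjamini-Hochberg method. In pro-B cells, with 1 WT library, genes were counted as apart where the log2 difference reached 1 with the 2 Lf-/- values both above or both below the WT value. The fits were tested on simulated data. Copies of members, and stretches shared with other genes, were sought with blastn 2.17.0 at 95% identity over at least 200 bases. Python 3.11.15, pandas 2.3.3 and matplotlib 3.10.9 were used for the rest.

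The members and all gene lists were chosen with earlier results of these data known. Values per library are given for the 4 highest members of each phase, the extremes of each comparison, members with an unadjusted p under 0.05, and Mki67. From the other pathway lists the genes with an adjusted p under 0.05 were to be named, otherwise the 2 largest rises and falls per fit. Other genes, among them Uhrf1, Mcm7, Bub1b, Plk1 and the closest to 2-fold, were chosen after their values were seen. The alternatives were quantile normalization and median-ratio scaling, a pseudocount of 0.1, dropping the filter or asking for 1 FPKM in each library of the fit, all 7 libraries in 1 fit, the replicate number as a block, a ratio of medians and each library left out in turn.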

Additional observations from a re-analysis of the deposited data

How the results depend on the processing

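Lf-/- pre-pro-B replicate 2, of unknown depth, limits every comparison with pre-pro-B cells, and the single WT pro-B library limits every comparison with pro-B cells. No member passed an adjusted p of 0.05 in any of the 4 limma fits under any alternative except without Lf-/- pre-pro-B replicate 1.

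Leaving out 1 library in turn moved the median log2 difference in pre-pro-B cells between -0.38 (without Lf-/- replicate 2) and 0.34 (without Lf-/- replicate 1) for S phase genes and between -0.42 and 0.44 for mitosis genes. Between 0 and 5 members and between 0 and 3338 genes then passed the adjusted threshold, the highest counts without Lf-/- replicate 1, 16 genes without WT replicate 1 and 24 without WT replicate 2. In the interaction the medians ran from 0.094 to 0.87 (S phase) and from 0.046 to 0.86 (mitosis), low without Lf-/- pre-pro-B replicate 1 and high without replicate 2, and from 0 to 2 members and 0 to 561 genes passed, the highest counts without Lf-/- pre-pro-B replicate 1. Over both stages 0 (without WT pro-B replicate 1) to 123 genes (without Lf-/- pre-pro-B replicate 2) passed, and between the stages 0 to 36 genes, 36 without Lf-/- pre-pro-B replicate 2. Each of the 7 libraries moved both counts by over 1.5 times when left out. In pro-B cells 3 to 4 members were at least 2-fold apart in either direction, beside 1371 of 10280 to 2071 of 10461 genes. The Pcna difference in pre-pro-B cells ran from -0.069, reversed, without Lf-/- pre-pro-B replicate 2 to 1.10 without replicate 1. The Ccne1 difference over both stages ran from -2.24 without WT pro-B replicate 1 to 0.12, reversed, without Lf-/- pre-pro-B replicate 2. Relative to all genes, the interaction medians were -0.22 (S phase) and -0.27 (mitosis) without Lf-/- pre-pro-B replicate 1. Without Lf-/- pre-pro-B replicate 2 these medians were 0.31 in both phases.

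Median-ratio scaling and quantile normalization, which remove a shift common to all genes, gave medians in pro-B cells of -0.12 and -0.11 (S phase) and -0.18 and -0.14 (mitosis). No member (0) was then at least 2-fold apart, and 822 and 833 genes were, against 3 members and 2853 genes with a pseudocount of 0.1. Over both stages the medians were -0.24 and -0.21 (S phase) and -0.18 and -0.17 (mitosis) under these scalings, and in the interaction 0.099 and 0.046 (S phase) and 0.092 and 0.11 (mitosis). Genes past the adjusted threshold over both stages numbered 7 under median-ratio scaling, 10 under quantile normalization, 0 with no filter, 63 with at least 1 FPKM in every library and 9 with a pseudocount of 0.1, against 20. Between the stages they numbered 6 with at least 1 FPKM in every library and 0 under quantile normalization, no filter and a pseudocount of 0.1, against 1. In the interaction 122 passed with no filter, against 0. The cause was not tested.

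With the replicate number as a block, a replicate block, 65 genes passed in pre-pro-B cells and 8 between the stages, and no member did. The labels do not say whether the numbers pair the libraries, and no pairing was used in the main fits. The deviations of same-numbered libraries correlated at 0.04, -0.01 and 0.05, and only -0.01 was within a genotype (Lf-/-). These values cannot exclude a pairing, as each deviation came from a group of 2 libraries. The ratio of mitosis to S phase by medians in place of sums was 1.27 and 1.13 (WT) against 1.06 and 1.23 (Lf-/-) in pre-pro-B cells, and 0.949 (WT) against 1.03 and 1.29 (Lf-/-) in pro-B cells.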
